A study of Mus musculus with 47 samples.

Results

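H19 and Igf2 are 2 of the 35856 gene symbols in an RNA sequencing table of mouse embryonic stem cells (ESC) and neural progenitor cultures (NPC). Both were taken by name, with earlier results of these data known, so their ranks among all genes are descriptions. They were followed for their level in each cell line, stage and treatment, and for the change from ESC to NPC. The change with auxin, given to degrade a tagged Polycomb protein, and whether the 2 genes rise together were followed too. All 4 lines had a C57BL/6 background and expressed Tir1, a plant F-box protein that directs degron-tagged proteins to destruction once auxin is added. The untagged line carried no degron. The SUZ12-AID, MTF2-AID and AID-JARID2 lines carried an auxin-inducible degron (AID) on the protein named. Whether a line is 1 clone is not given in the sources used here. ESC medium held the kinase inhibitors CHIR99021 (3 µM) and PD0325901 (1 µM) beside LIF (100 U/ml). NPC were made from them with 10 ng/ml bFGF for 72 hours and then 500 nM SAG, an agonist of Hedgehog signalling, for 48 hours. The auxin was indole-3-acetic acid at 50 µM, for 12 hours in ESC and for 5 days, through differentiation, in NPC. Each of 16 groups had 3 biological replicates but for SUZ12-AID NPC with auxin (2), which makes 47 libraries. For MTF2-AID and AID-JARID2 NPC the sample titles give day 0 against 5 days in the remaining fields, and the stage was taken from those fields.

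H19 and Igf2 are the textbook pair of reciprocally imprinted genes. H19 makes a long noncoding RNA from the maternal chromosome, and Igf2 makes insulin-like growth factor 2, a secreted growth factor of the embryo and placenta, from the paternal chromosome. An imprinting control region between them is methylated on the paternal copy. CTCF binds the unmethylated maternal copy and keeps shared downstream enhancers from Igf2, so that tissues with active enhancers commonly express both genes, each from its own allele. SUZ12 is a core subunit of Polycomb repressive complex 2 (PRC2), the histone methyltransferase of repressed developmental genes, and MTF2 and JARID2 are accessory subunits of its alternative forms. The TPM values (each gene's share of all transcripts, scaled for gene length) add up both alleles, and neither allele could be measured apart here.

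On GRCm38 (mm10), H19 (ENSMUSG00000000031.16) lies on chromosome 7 at 142575529 to 142578143 on the minus strand and is annotated as a lincRNA with 7 transcripts. Igf2 (ENSMUSG00000048583.16) lies on the same strand at 142650766 to 142666816 and is protein coding with 9 transcripts, so that 72.6 kb separate the genes. Both genes hold a microRNA. Mir675 (142577064 to 142577147) lies in an exon of 3 of the 7 H19 transcripts, and Mir483 (142654924 to 142654996) lies in Igf2, within an exon of 0 of its 9 transcripts. Their RefSeq sequences (GRCm38.p6), found for both names, are shown because they are the small RNAs that the 2 loci encode, with the mature strands of the hairpin in capitals and, in each mature sequence, the seed (bases 2 to 8) in capitals.
miR-675 hairpin: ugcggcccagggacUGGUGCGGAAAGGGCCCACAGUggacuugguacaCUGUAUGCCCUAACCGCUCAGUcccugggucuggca
miR-675-5p: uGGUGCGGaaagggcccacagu
miR-675-3p: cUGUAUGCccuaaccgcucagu
miR-483-5p: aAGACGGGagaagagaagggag
miR-483-3p: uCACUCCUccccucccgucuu
The 4 mature strands carry 4 different seeds. These libraries measured polyadenylated RNA and not mature microRNAs. The Mir675 row was listed at 0 in all 47 libraries, also in the 2 libraries with 2197 TPM or more of its host H19, and the Mir483 row held 11 reads over 8 libraries, of which 0 were ESC libraries.

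The RefSeq table held 4 promoter windows of Igf2. The stretch before the most downstream of these starts, chr7:142657497-142657746 on the minus strand, is intronic to the longer Igf2 transcripts. It is shown because the gene-level values below add up all Igf2 starts.
Igf2, 250 bases before the start: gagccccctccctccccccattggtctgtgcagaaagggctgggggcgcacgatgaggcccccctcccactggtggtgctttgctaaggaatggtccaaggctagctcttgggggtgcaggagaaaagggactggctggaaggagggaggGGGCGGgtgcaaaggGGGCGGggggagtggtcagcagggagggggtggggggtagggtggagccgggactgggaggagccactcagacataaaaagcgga
Capitals mark 2 matches of GGGCGG, searched on both strands. A match occurs in 35.7% of the 32851 RefSeq promoter windows of 300 bases. The 300-base window around this start holds 7 CG dinucleotides, which is the median of all windows. The window of the next start upstream (142658755 to 142659054) holds 24. The TPM values do not separate these starts.

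Depth, in reads recovered from the steps of the TPM values, ran from 3.24 to 8.71 M (M, 1000000 reads) per library with a median of 5.39 M. The 6 ESC markers summed to between 3145 and 3664 TPM in every ESC library, and all 7 neural progenitor markers rose in untagged NPC, to a sum of 1607 to 1797 TPM. The group labelled SUZ12-AID NPC with auxin did not have the marker levels of its stage: neural progenitor markers summed to 217 to 243 TPM, neuron markers to 399 to 447 TPM, against 4220 to 4603 TPM in untagged NPC and 399.9 to 588 TPM in ESC, and ESC markers to 546 to 558 TPM. AID-JARID2 NPC with auxin lay between, with neural progenitor markers at 661 to 731 TPM. NPC below names the labelled stage. Auxin acts on the tagged protein, and protein was not measured here, so the RNA of a tagged gene does not test its depletion. In NPC, Suz12 was 77.8 TPM in untreated SUZ12-AID libraries and 163 TPM with auxin, Mtf2 was 21.1 and 24.3 TPM in MTF2-AID, and Jarid2 was 35.6 and 56.6 TPM in AID-JARID2.

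In ESC both genes were close to silent in all lines, with or without auxin. H19 ranged from 0 to 3.35 TPM over the 24 ESC libraries, on 0 to 21 reads each. In untagged ESC it was 1.499, 1.24 and 1.28 TPM untreated and 0.733, 0.483 and 3.35 TPM with auxin. The highest value, replicate 3 with auxin, rests on 21 reads, and the auxin group overlaps the untreated group on both sides. In MTF2-AID ESC, H19 was 0, 0.378 and 0.223 TPM untreated, on 0, 2 and 1 reads, and 0, 0.588 and 0.396 TPM with auxin, on 0, 3 and 2 reads. A count of 0 there allows up to 3 reads, or 0.899 TPM in the untreated library and 0.634 TPM in the auxin library (counting error only). SUZ12-AID ESC had 0.775 to 1.32 TPM untreated and 0.608 to 1.29 TPM with auxin, and AID-JARID2 ESC had 0.666 to 1.55 and 0.195 to 0.777 TPM.

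Igf2 ranged from 0.119 to 0.921 TPM in ESC, on 1 to 12 reads. Its group means ran only from 0.392 ± 0.163 TPM (SD, n = 3) in untreated SUZ12-AID to 0.634 ± 0.254 TPM (n = 3) in untreated MTF2-AID, and each group overlapped its neighbour in that order. No ESC library reached 1 TPM of Igf2, so the gene did not enter the ESC test; without that filter, its adjusted p in limma, a linear model fitted across all genes, was 0.917 or more in all 10 ESC comparisons. H19 was tested, and auxin for 12 hours gave log2 differences of -0.14 ± 0.42 (SE) in untagged, -0.18 in SUZ12-AID, 0.21 in MTF2-AID and -0.48 in AID-JARID2, each with the same SE. None passed limma's adjusted p of 0.05, the smallest being 0.779, while 0.212%, 6.83%, 1.09% and 0.298% of tested genes did in those comparisons. Subtracting the untagged response left H19 differences that were likewise not called, against 0.192%, 0.00662% and 0% of genes. For the last of these, AID-JARID2, limma called 0 genes with 749 at an unadjusted p under 0.05, and voom, limma's model for read counts, called 0.

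Untreated MTF2-AID ESC had lower H19 than untreated untagged ESC, and the groups did not overlap. The log2 difference was -1.43 ± 0.42, with an adjusted p of 0.0229 in limma, where 15.7% of genes were called. The call is lost, with adjusted p from 0.0521 to 0.102, when any 1 of the 3 untagged libraries or MTF2-AID replicate 1 is left out. The SUZ12-AID and AID-JARID2 lines differed from untagged ESC by -0.30 and -0.38, not called, against 1.65% and 6.31% of genes.

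Both genes rose from ESC to NPC in every line, with and without auxin. In untagged cells without auxin, H19 went from the values above to 215, 209 and 210 TPM. Igf2 went from 0.602, 0.570 and 0.420 TPM to 51.4, 51.2 and 46.97 TPM. Every NPC library lay above every ESC library for both genes, by a wide margin. The log2 rise was 6.85 ± 0.31 for H19 and 5.61 ± 0.21 for Igf2, with limma's adjusted p of 1.18e-20 and 3.48e-24. Differentiation changed most of the transcriptome, and 76.1% of 17760 tested genes were called in that comparison. By size, the rise of H19 was the 50th largest and that of Igf2 the 153rd largest.

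The other 7 stage comparisons also called both genes, against 76.8% (SUZ12-AID), 74.9% (MTF2-AID) and 73.4% (AID-JARID2) of genes without auxin and 75.1% (untagged), 62.1% (SUZ12-AID), 74.9% (MTF2-AID) and 69.6% (AID-JARID2) with it. With auxin, H19 had the largest log2 rise of all tested genes in SUZ12-AID (10.71 ± 0.34) and in AID-JARID2 (9.95 ± 0.31). In SUZ12-AID, Igf2 came second at 9.18 ± 0.23. The ESC side of these differences rests on 21 reads of Igf2 or fewer per group and 28 or fewer of H19, so the exact size depends on the pseudocount: with 0.1 in place of 0.5, the H19 rise in SUZ12-AID with auxin was 11.25. In bulk RNA, fewer cells of a type and less RNA per cell cannot be told apart, here and below.

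**Figure D1:**
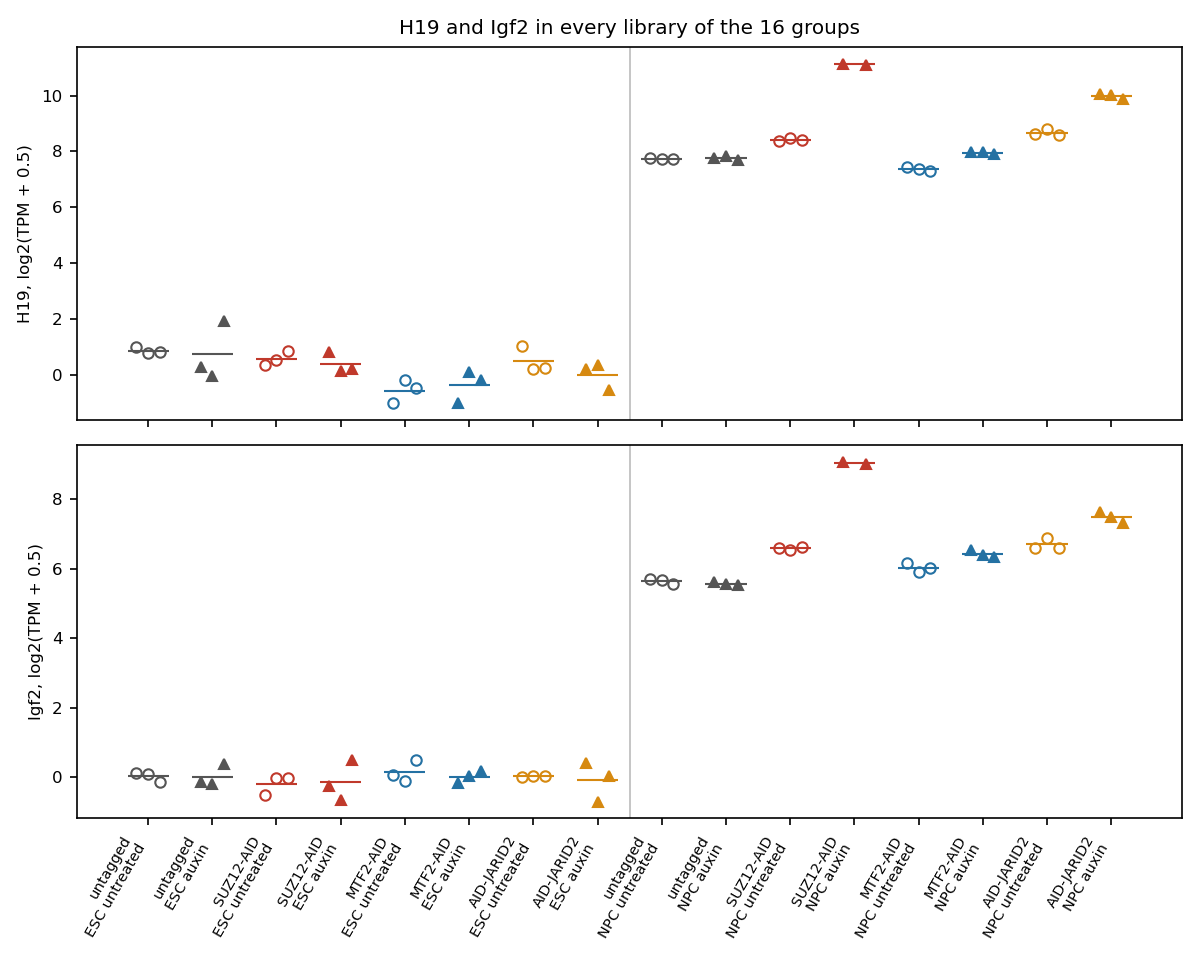
Levels of H19 (top) and Igf2 (bottom) as log2(TPM + 0.5) in each library, by line, stage and treatment; open circles are untreated libraries, filled triangles are auxin libraries and bars are group means. All NPC libraries lie above all ESC libraries, and SUZ12-AID NPC with auxin is highest for both genes.

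Neither gene passed the test for auxin in untagged NPC. H19 was 218, 226 and 206 TPM with auxin, against 209 to 215 TPM without. Igf2 was 48.3, 47.1 and 46.0 TPM, against 46.97 to 51.4 TPM. The auxin and untreated groups overlapped for both genes. The log2 differences were 0.03 ± 0.06 for H19 and -0.08 ± 0.08 for Igf2, with limma's adjusted p of 0.939 and 0.888. In that comparison 0% of 16469 genes were called by limma, with 1180 at an unadjusted p under 0.05 and 16 called by voom.

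With auxin through differentiation, both genes rose most in SUZ12-AID. H19 was 331, 354 and 338 TPM in untreated SUZ12-AID NPC, and 2240 and 2197 TPM with auxin. Igf2 was 95.8, 93.0 and 98.9 TPM untreated, and 535 and 522 TPM with auxin. The 2 auxin libraries lay close together and far above the untreated ones. The mean rose 6.504-fold for H19 and 5.51-fold for Igf2. On the log2 scale the rises were 2.70 ± 0.06 and 2.46 ± 0.09, with limma's adjusted p of 9.90e-19 and 2.88e-15, where 56.9% of genes were called. H19 thereby reached the 44th highest mean TPM of all genes in that group, from the 443rd in the untreated group, and Igf2 the 270th from the 2171st. In added TPM, 1877 for H19, only 1 other gene of the table gained more. The response exceeded the untagged one by 2.67 ± 0.09 for H19 and 2.54 ± 0.12 for Igf2 (adjusted p of 6.73e-16 and 6.48e-13, 43.5% of genes called).

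In AID-JARID2 both genes rose with auxin, with the larger log2 rise in H19. H19 was 396, 449 and 382 TPM in untreated AID-JARID2 NPC, and 1059, 1031 and 929 TPM with auxin. Igf2 was 96.6, 119 and 97.3 TPM untreated, and 196, 181 and 160 TPM with auxin. Neither gene's groups overlapped. The mean rose 2.46-fold for H19 and 1.72-fold for Igf2. On the log2 scale the rises were 1.30 ± 0.06 and 0.78 ± 0.08, with limma's adjusted p of 6.23e-13 and 3.46e-07, where 25.0% of genes were called. Beyond the untagged response, they were 1.27 ± 0.08 and 0.86 ± 0.12 (adjusted p of 1.90e-09 and 3.82e-05, 9.04% of genes called).

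MTF2-AID had the smallest fitted rises with auxin of the 3 tagged lines. H19 was 172, 167 and 158 TPM in untreated MTF2-AID NPC, and 249, 254 and 243 TPM with auxin. Igf2 was 71.1, 59.1 and 64.2 TPM untreated, and 93.4, 84.7 and 81.4 TPM with auxin. Again every auxin library lay above every untreated one. The rises were 0.58 ± 0.06 and 0.42 ± 0.08 on the log2 scale, with limma's adjusted p of 3.99e-06 and 3.30e-03, where 8.14% of genes were called. Beyond the untagged response, H19 rose by 0.55 ± 0.08 and Igf2 by 0.49 ± 0.12 (adjusted p of 1.83e-03 and 0.0369, 1.40% of genes called). The Igf2 call beyond untagged does not hold without the filter on low genes (0.49, adjusted p of 0.0665). It is also lost, with adjusted p from 0.0534 to 0.105, when 1 of 9 libraries is left out: untagged untreated replicates 1 and 2, any untagged auxin replicate, MTF2-AID untreated replicates 2 and 3, and MTF2-AID auxin replicates 1 and 2.

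The lines differed from each other in the size of the response. SUZ12-AID exceeded MTF2-AID by 2.12 ± 0.09 for H19 and 2.04 ± 0.12 for Igf2 (43.0% of genes called). It exceeded AID-JARID2 by 1.40 ± 0.09 and 1.68 ± 0.12 (31.1% of genes called). All 4 of these differences passed in limma, with adjusted p of 1.42e-09 or less. AID-JARID2 exceeded MTF2-AID by 0.72 ± 0.08 for H19 (adjusted p of 4.27e-06). For Igf2 the same difference was 0.36 ± 0.12 and missed the threshold at an adjusted p of 0.0558, in a comparison with 9.64% of genes called. That miss does not show that Igf2 responded alike in the 2 lines: 4 alternatives and 4 of the fits without 1 library put it past the threshold.

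**Figure D2:**
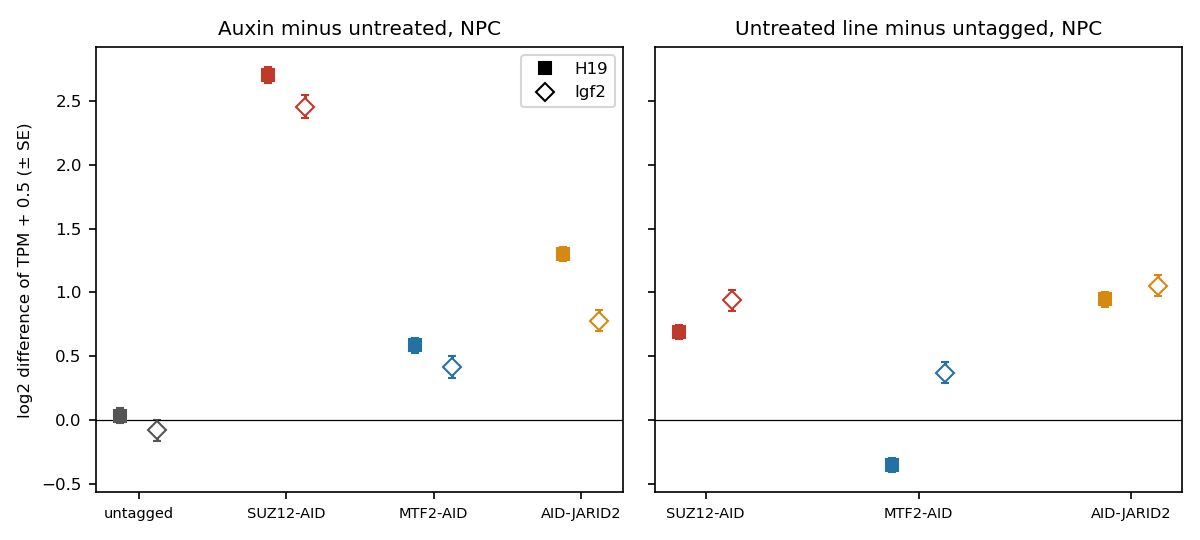
Left, log2 difference of auxin minus untreated NPC in each line, and right, of each untreated tagged line minus untagged NPC, for H19 (filled squares) and Igf2 (open diamonds), with the standard error of the limma fit. Both genes rose with auxin in the 3 tagged lines, and the untreated MTF2-AID line is lower than untagged for H19 and higher for Igf2.

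The lines already differed in NPC before auxin, and here the 2 genes parted in 1 line. In untreated SUZ12-AID NPC, H19 was higher than in untagged NPC by 0.69 ± 0.06 on the log2 scale and Igf2 by 0.94 ± 0.08, with limma's adjusted p of 4.32e-07 and 6.79e-07. This comparison called 134 of 16469 genes, or 0.814%, and both genes were among them. In untreated AID-JARID2 NPC, H19 was higher by 0.95 ± 0.06 and Igf2 by 1.05 ± 0.08 (adjusted p of 9.65e-11 and 5.24e-09, 23.8% of genes called). Markers differed there as well: against untagged NPC, that group had neural progenitor markers at 981 to 1222 TPM (1607 to 1797 in untagged), neuron markers at 2247 to 2687 (4220 to 4603), mesoderm markers at 368 to 524 (112 to 116) and trophectoderm markers at 344 to 437 (115 to 128). In untreated SUZ12-AID NPC, neural progenitor markers summed to 1715 to 1878 TPM, mesoderm markers to 157 to 209 and trophectoderm markers to 215 to 242. Tagln and Acta2 held most of the mesoderm sums, at 231 and 161 TPM in untreated AID-JARID2 and 36.6 and 29.9 TPM in untagged NPC. The part of cell mix in the H19 and Igf2 values was not tested. In untreated MTF2-AID NPC, H19 was lower, by -0.35 ± 0.06, while Igf2 was higher, by 0.37 ± 0.08. Both passed in limma (adjusted p of 4.11e-04 and 6.94e-03, 8.76% of genes called), and neither gene's libraries overlapped with those of the untagged line. With auxin, MTF2-AID H19 (243 to 254 TPM) lay above untagged H19 with auxin (206 to 226 TPM).

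Ordered by mean level in NPC, H19 ran from 166 ± 7 TPM (SD, n = 3) in untreated MTF2-AID through untagged untreated (211 ± 2.8) and untagged with auxin (217 ± 9.8) to MTF2-AID with auxin (249 ± 5.6). It went on through untreated SUZ12-AID (341 ± 12.0) and untreated AID-JARID2 (409 ± 35.6) to AID-JARID2 with auxin (1006 ± 68.4) and SUZ12-AID with auxin (2218 ± 30.3, n = 2). Of these neighbours, only the pair of untagged groups overlapped. Igf2 began with untagged with auxin (47.1 ± 1.2 TPM) and untagged untreated (49.9 ± 2.5), then MTF2-AID untreated (64.8 ± 6.0) and with auxin (86.5 ± 6.2), untreated SUZ12-AID (95.9 ± 3.0) and untreated AID-JARID2 (104 ± 12.7). AID-JARID2 with auxin (179 ± 18.4) and SUZ12-AID with auxin (528 ± 9.0, n = 2) were highest. The untagged groups overlapped, as did untreated SUZ12-AID with both of its neighbours. The top 4 places are thus held by the same groups for both genes, and the bottom 4 places are ordered differently.

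Over the 8 NPC group means of log2(TPM + 0.5), H19 and Igf2 had a Pearson r of 0.96 and a Spearman rho of 0.90, a description of groups that share lines and untreated libraries. Without the 2 groups farthest from the H19 median, SUZ12-AID and AID-JARID2 with auxin, r was 0.77 over 6 groups. Within groups, the deviations of the 23 NPC libraries from their group means had an r of 0.69, between values that share a library and its depth. In ESC, where both genes rest on few reads, the r over 8 group means was -0.40, and 0.43 over 6 groups without the MTF2-AID groups. The stages form separate clusters, so the relation of H19 to Igf2 is given within each; the ranking of genes by likeness, further below, also has a version over all 16 groups, which mostly reads the stage difference.

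**Figure D3:**
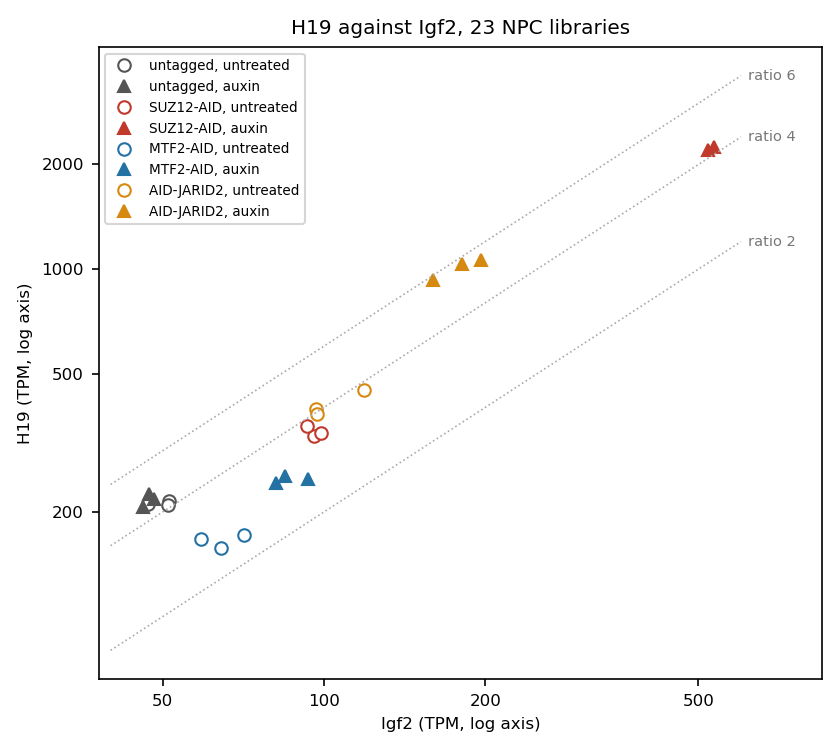
H19 against Igf2 in TPM in each of the 23 NPC libraries, on log axes, with dotted lines at fixed H19 to Igf2 ratios. The groups climb along one diagonal from 46.0 to 535 TPM of Igf2, with MTF2-AID libraries below it and AID-JARID2 auxin libraries above it.

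The ratio of H19 to Igf2 TPM describes how far the rises kept in step, with no test. It was 4.09 to 4.48 in untagged NPC without auxin and 4.49 to 4.80 with auxin. In SUZ12-AID it was 3.41 to 3.81 and 4.19 to 4.21, and in AID-JARID2 3.78 to 4.09 and 5.39 to 5.81. In MTF2-AID it was 2.42 to 2.83 and 2.67 to 3.00. Mean ratios were higher with auxin in all 4 lines, the untagged line included, and only in MTF2-AID did the libraries with and without auxin overlap. All 6 MTF2-AID libraries had ratios below those of the other 17 NPC libraries. TPM is scaled for length, so the ratio compares transcript numbers and not reads.

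**Figure D4:**
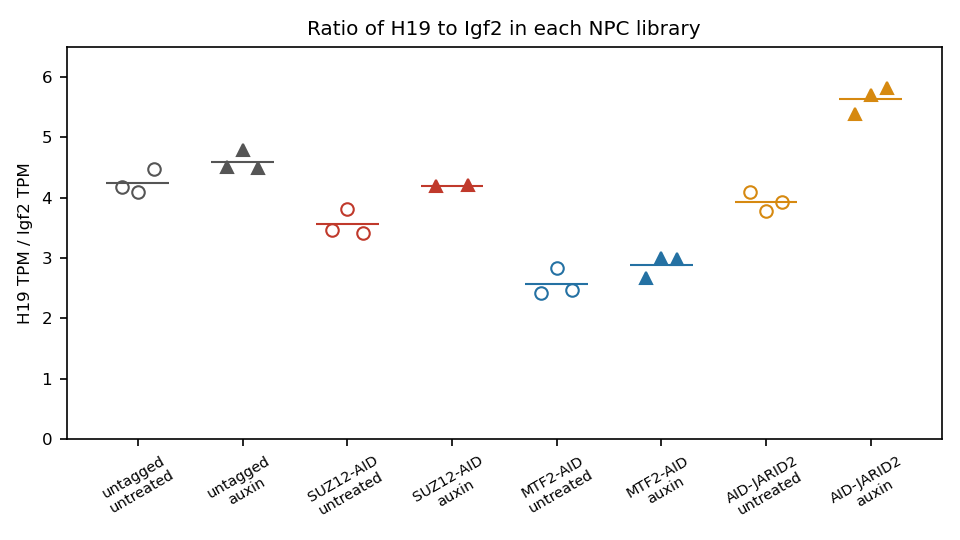
Ratio of H19 TPM to Igf2 TPM in each NPC library, with bars at the group means. MTF2-AID libraries lie between 2.42 and 3.00, and AID-JARID2 libraries with auxin between 5.39 and 5.81.

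Markers of other cell types moved with these groups, and their part in the H19 and Igf2 values was not tested. In SUZ12-AID NPC, auxin raised 6 of 6 ESC markers and lowered 7 of 7 neural progenitor and 5 of 5 neuron markers. ESC markers summed to 546 to 558 TPM against 11.8 to 17.3 TPM untreated, and neural progenitor markers to 217 to 243 TPM against 1715 to 1878 TPM. In AID-JARID2, auxin raised 5 of 6 ESC markers (164 to 183 TPM against 49.9 to 65.2 TPM) and lowered 5 of 7 neural progenitor markers, with 1 higher. In MTF2-AID, 2 of 6 ESC markers rose, with sums of 54.0 to 65.3 against 27.0 to 33.1 TPM, and 4 of 7 neural progenitor markers fell. All 5 neuron markers fell in both of these lines as well. They summed to 703 to 782 TPM with auxin against 2247 to 2687 TPM untreated in AID-JARID2. In MTF2-AID they summed to 2915 to 3017 TPM against 4071 to 4273 TPM. ESC themselves had at most 3.35 TPM of H19, and which cells of the NPC cultures held H19 or Igf2 was not tested.

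Sets for lineages outside the neural one, several of which express H19 and Igf2 in the embryo, moved as well. The part of these lineages in the H19 and Igf2 values was not tested. Mesoderm markers rose in 11 of 12 tested for SUZ12-AID (summed level 706 to 744 TPM against 157 to 209 TPM), in 8 of 12 for MTF2-AID (479 to 524 against 287 to 310 TPM) and in 1 of 12 for AID-JARID2 (504 to 583 against 368 to 524 TPM), where 1 fell. Tagln and Acta2 held most of the mesoderm sum with auxin in MTF2-AID (236 and 151 TPM) and in AID-JARID2 (321 and 140 TPM). In SUZ12-AID with auxin, Tagln (259 TPM), Meox1 (124 TPM) and Acta2 (97 TPM) were the highest. Mesp1, an early mesoderm factor, was listed at 0 in all libraries of 6 of the 8 NPC groups, among them untagged NPC and SUZ12-AID with auxin. Trophectoderm markers rose in 6 of 7 for SUZ12-AID (1029 to 1091 against 215 to 242 TPM), 5 of 7 for AID-JARID2 (636 to 762 against 344 to 437 TPM) and 2 of 7 for MTF2-AID (176 to 186 against 99.8 to 112 TPM), most of it in the keratins Krt8 and Krt18. Neural crest markers rose in 5 of 6 for SUZ12-AID (124 to 128 against 36.9 to 40.6 TPM), 1 of 6 for MTF2-AID and 0 of 6 for AID-JARID2, where 1 fell. Endoderm markers rose in 6 of 9 for SUZ12-AID, where 1 fell, in 6 of 9 for MTF2-AID and in 0 of 9 for AID-JARID2, where 1 fell. Over all genes, auxin raised 23.9% and lowered 33.0% in SUZ12-AID NPC, 5.03% and 3.11% in MTF2-AID, and 9.28% and 15.7% in AID-JARID2.

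Igf2 acts through a set of receptors and binding proteins, and these did not follow it as a block. Of 27 genes of the IGF pathway, 21 were tested. From untagged ESC to NPC, 13 rose and 6 fell, with a median log2 difference of 1.59, beside 47.6% and 28.5% of all genes and a median of 0.28. With auxin in SUZ12-AID NPC, 9 rose and 8 fell (median 0.12, all genes -0.10), beside 23.9% and 33.0% of all genes. In MTF2-AID, 4 rose and 0 fell (0.14, all genes 0.03), beside 5.03% and 3.11%. In AID-JARID2, 4 rose and 5 fell (0.03, all genes -0.04), beside 9.28% and 15.7%. In untagged NPC 0 of 21 were called, beside 0% of all genes. These counts include Igf2 itself and, in SUZ12-AID and AID-JARID2, Ins2, which held 9 reads over all libraries.

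The other insulin-family ligands were scarcely detected. Igf1 was at 0.808 TPM or less as a group mean in NPC, and Ins1 was listed at 0 there. Ins2, the gene upstream of Igf2, held 9 reads over all libraries, and its calls in SUZ12-AID and AID-JARID2 NPC rest on those reads. Of the receptors, Igf1r, which carries the growth signal of IGF2, went from 33.3 to 21.4 TPM in SUZ12-AID NPC with auxin (log2 -0.62, limma's adjusted p of 1.4e-04). Insr, the insulin receptor, went from 18.2 to 10.8 TPM (-0.72, adjusted p of 8.0e-06). Igf2r, itself imprinted and known for clearing IGF2 from the cell surface, rose from 48.0 to 106 TPM (1.14, adjusted p of 1.6e-11). None of the 3 receptors was called in MTF2-AID or AID-JARID2.

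Among the binding proteins that hold IGFs outside cells, Igfbp2, Igfbp3, Igfbp4, Igfbp6 and Igfbp7 rose in SUZ12-AID NPC with auxin. Igfbp6 had the largest log2 rise of these, 2.75, from 0.464 to 5.30 TPM, and Igfbp7 went from 0.0930 to 1.61 TPM (1.86), on 35 and 10 reads in the auxin group. Igfbp4 had the highest level, at 528 TPM against 193 TPM untreated (log2 1.45, limma's adjusted p of 1.3e-13), and Igfbp2 went from 190 to 465 TPM. Igfbp5 fell from 359 to 122 TPM (-1.55, adjusted p of 5.0e-11) and fell in AID-JARID2 too, from 420 to 311 TPM (-0.44). Pappa, a protease that frees IGFs from binding proteins, fell from 10.3 to 3.76 TPM in SUZ12-AID and from 7.22 to 5.15 TPM in AID-JARID2. Of the signalling adaptors, Irs1 rose in MTF2-AID (0.35) and fell in AID-JARID2 (-0.35). Mean Irs2 went from 80.9 to 53.45 TPM with auxin in SUZ12-AID and from 108 to 136 TPM in MTF2-AID, without overlap of libraries. In AID-JARID2 it went from 149 to 168 TPM, with overlap. The RNA-binding proteins Igf2bp1, Igf2bp2 and Igf2bp3, which bind Igf2 mRNA, all fell in SUZ12-AID, by -0.39, -0.59 and -0.74.

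Igf2os is an antisense transcript on the plus strand (142659693 to 142670356) that overlaps 7124 bases of Igf2. It was at 1.85% to 3.59% of the Igf2 TPM in every NPC library. Its mean was 2.97 TPM in untreated SUZ12-AID and 12.9 TPM with auxin (log2 1.95, limma's adjusted p of 9.4e-09), and 3.51 and 5.20 TPM in AID-JARID2 (0.52, adjusted p of 0.024). The libraries kept strand (dUTP method), but whether the counting used it is not stated, so reads of Igf2 and of Igf2os cannot be told apart. A further annotated gene, Gm49394, spans Igf2 on the same strand from 142650769 to 142669942 and was not analysed here.

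In the wider region of distal chromosome 7, more members rose than fell with auxin in the tagged lines. Of 22 genes listed for it, without H19 and Igf2, 16 were tested in NPC. Among those tested was Mir483, which lies within Igf2 and held only 11 reads over 8 libraries. Those raised in SUZ12-AID and AID-JARID2 include Igf2os, whose reads cannot be told apart from those of Igf2. They also include Ins2, which held only 4 reads in each of these auxin groups. Auxin raised 9 and lowered 4 in SUZ12-AID (median log2 0.89), beside 23.9% and 33.0% of all genes and an all-gene median of -0.10. In AID-JARID2 it raised 6 and lowered 1 (0.23), beside 9.28% and 15.7% and a median of -0.04. In MTF2-AID it raised 2 and lowered 0 (0.06), beside 5.03% and 3.11% and a median of 0.03, and 0 were called in the untagged line. Phlda2, an imprinted brake on placental growth, rose in all 3 tagged lines. It went from 26.6 to 174 TPM in SUZ12-AID (log2 2.69), from 50.2 to 131 TPM in AID-JARID2 (1.40) and from 12.9 to 19.5 TPM in MTF2-AID (0.58), all called in limma with adjusted p of 7.2e-03 or less. Unlike H19, Phlda2 had fallen in untagged NPC relative to ESC (-1.66). Cdkn1c, a cell-cycle inhibitor from the neighbouring imprinted cluster, rose with differentiation as Igf2 did (5.82) but with auxin only by 0.18 in SUZ12-AID and 0.24 in MTF2-AID, and its value in AID-JARID2 was -0.11. Kcnq1ot1, the noncoding RNA that silences that cluster on the paternal chromosome, fell by -0.58 in SUZ12-AID, at 0.827 TPM against 1.49 TPM.

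**Figure D5:**
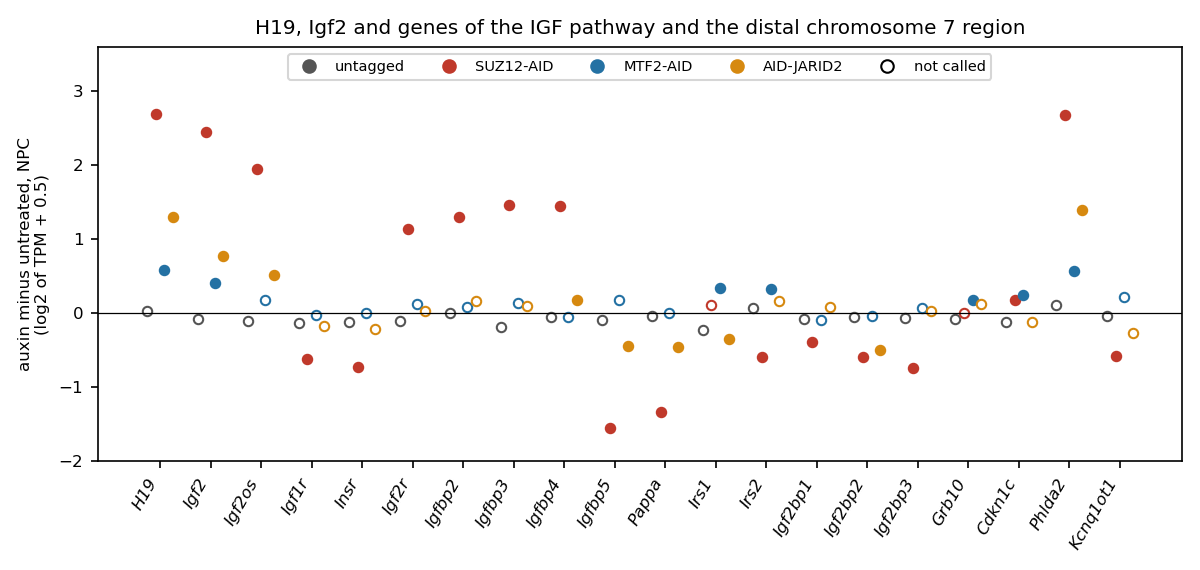
Log2 difference of auxin minus untreated NPC for H19, Igf2, genes of the IGF pathway and genes of distal chromosome 7, by line; filled points passed limma's adjusted p of 0.05 and open points did not. H19, Igf2 and Phlda2 rose in all 3 tagged lines, while the receptors passed in SUZ12-AID alone, Igf2r higher and Igf1r and Insr lower.

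Genes whose pattern was most like that of each member were ranked by Pearson r over group means, leaving out gene models without a name. Over all 16 groups, where the stage difference dominates, the 5 nearest to H19 were Ngfrap1, Igf2, Ets1, Krt19 and Ube2f (r of 0.992 to 0.994), so Igf2 ranked 2nd of 17759 genes. For Igf2 they were Sema3a, Lsp1, H19, Ets1 and Cd248 (0.993 to 0.997), with H19 3rd. By Spearman rho over the same groups, Igf2 ranked 526th for H19 and H19 393rd for Igf2. Over the 8 NPC groups alone, the 5 nearest to H19 were Prune2, Klhl13, Cdc42ep5, Tmem37 and Scarf1 (0.992 to 0.997), and Igf2 ranked 204th of 16468. The 5 nearest to Igf2 were Cdh3, Igf2os, Tinagl1, Dnajb13 and Nup62cl (0.989 to 0.996), and H19 ranked 197th. Cdh3, a cadherin, put the 8 groups in the same order as Igf2. It went from 2.99 TPM in untreated untagged NPC to 37.8 TPM in SUZ12-AID with auxin. This ranking leaves ESC out: Cdh3 was at 7.12 to 10.7 TPM in the ESC groups, where Igf2 was near silent. Tinagl1, Dnajb13 and Nup62cl were likewise higher in every ESC group than in untreated untagged NPC, and Igf2os was not. Of the 5 nearest to H19, Prune2, Cdc42ep5 and Scarf1 were also higher in every ESC group than in untreated untagged NPC. Klhl13 and Tmem37 were higher in some ESC groups and lower in others.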

How the data were processed

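Polyadenylated RNA was measured in 47 libraries. The authors deposited TPM values, 1 per gene symbol and library, each library summing to 1000000; the submitters' processing notes name STAR 2.6.1d and the mm10 build. Which program counted reads, and on which annotation, is not given in the sources used here. Coordinates come from GENCODE M21 (GRCm38), sequences from RefSeq (GRCm38.p6). Whole reads were recovered from the TPM steps for 100.0% of 27296 genes above 0 (tolerance 0.001), for depth and read numbers, which carry counting error only. Differences were tested with limma 3.58.1 (R 4.3.3; trend and robust, two-sided, Benjamini-Hochberg over all tested genes, called under 0.05) on log2(TPM + 0.5), keeping genes that reached 1 TPM in 2 or more libraries, with the 8 groups of a stage in 1 fit, or all 16 for NPC against ESC; fold changes on this scale understate low genes. The fit was tried on simulated NPC counts with changes in MTF2-AID with auxin only. That trial does not cover the low ESC counts or the SUZ12-AID comparisons. The fits were repeated with a pseudocount of 0.1 or 1, all genes unfiltered, scaling by median of ratios, the compared groups alone, a replicate block, voom on recovered reads, and leaving out each library. H19 and Igf2 and all gene lists were chosen with earlier results of these data known, so list counts are descriptions. Named genes are the 5 named genes nearest in pattern to each member, genes of the IGF and chromosome 7 lists with a group mean of 1 TPM or more, and up to 4 called members of other lists. Ligands under 1 TPM, Krt8, Krt18, Mesp1, Tagln, Acta2, Meox1, Ctcf, Zfp57, Plagl1 and Gm49394 were named after their values were seen.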

Additional observations from a re-analysis of the deposited data

Results flagged for a closer look

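Of the tests of a difference in auxin response between lines, limma called 11, all in NPC, given here on the log2 scale. They were picked by their calls and repeat tests given above, so they add no support. Against the untagged line, the response of SUZ12-AID was larger by 2.67 for H19 and 2.54 for Igf2 (43.5% of all genes called). That of AID-JARID2 was larger by 1.27 and 0.86 (9.04%), and that of MTF2-AID by 0.55 and 0.49 (1.40%). The Igf2 call in MTF2-AID is lost when 1 of 9 libraries is left out. Between tagged lines, SUZ12-AID exceeded MTF2-AID by 2.12 for H19 and 2.04 for Igf2 (43.0%), and AID-JARID2 by 1.40 and 1.68 (31.1%). AID-JARID2 exceeded MTF2-AID by 0.72 for H19 (9.64%). The Igf2 value of that pair, 0.36, was not called (limma, adjusted p of 0.0558), nor was any H19 difference in ESC. SUZ12-AID with auxin had 2 libraries and all other groups had 3, too few to look for single outlying libraries.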

How the results depend on the processing

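Over 52 tested differences, 773 of 806 alternative values kept their direction and their side of the threshold, among them all 332 for the 24 changes from ESC to NPC and with auxin in NPC. Without the filter, the Igf2 response of MTF2-AID beyond untagged in NPC was 0.4949 (limma, adjusted p of 0.0665). The Igf2 difference of AID-JARID2 minus MTF2-AID passed with median-of-ratios scaling (0.4609), with voom (0.4194) and with a replicate block by either numbering (0.3631). The H19 response of SUZ12-AID beyond untagged in ESC turned positive with a pseudocount of 0.1 (0.0170). Leaving out 1 library gave, for Igf2 in NPC, 0.4309 to 0.5633 for MTF2-AID beyond untagged and 0.2936 to 0.4607 for AID-JARID2 minus MTF2-AID. For H19 in ESC it gave -1.612 to -1.206 for untreated MTF2-AID minus untagged, -0.7392 to 0.2448 for auxin in untagged and -0.0266 to 0.5343 in MTF2-AID, and, beyond untagged, -0.421 to 0.563 for SUZ12-AID, -0.0378 to 0.9462 for MTF2-AID and -0.7249 to 0.2591 for AID-JARID2. Where a group kept 1 library, SUZ12-AID with auxin, it was assumed to vary like the others. The cause of each change was not tested. Samples share only a number: same-numbered libraries deviated with correlations of -0.033 to 0.085, and the replicate block changed no other call. Median-of-ratios scaling moved the median of all genes by 0.123 with auxin in SUZ12-AID NPC, where H19 then rose by 2.84 and Igf2 by 2.598, and by -0.361 to -0.174 from ESC to NPC. ESC levels rest on 0 to 21 reads, which limits every ESC comparison.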

Other observations

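Genes listed for imprint upkeep and for DNA methylation more widely were mostly lower in NPC than in ESC. Of 15 in the list, 2 rose and 11 fell in the untagged line (median log2 of -1.31, all genes 0.28). The list also holds Tet1, Tet2, Tet3, Ctcfl and de novo methyltransferase genes, so its counts do not measure imprint upkeep. Zfp57, a zinc-finger protein that protects imprinted methylation, fell by -2.52, and Dppa3, which shields the maternal genome, by -6.42. With auxin in NPC, 6 of 14 rose and 4 fell in SUZ12-AID (23.9% and 33.0% of all genes), 5 rose and 2 fell in AID-JARID2 (9.28% and 15.7%), and 2 rose and 0 fell in MTF2-AID (5.03% and 3.11%). Dnmt3b, a de novo DNA methyltransferase, rose in all 3 tagged lines (1.505, 1.37 and 0.62 in SUZ12-AID, AID-JARID2 and MTF2-AID), as did its cofactor Dnmt3l (5.73, 1.77 and 1.11). Ctcf, the insulator protein, moved little in any line (-0.20 in SUZ12-AID, 0.00 in AID-JARID2, 0.06 in MTF2-AID, limma's adjusted p of 0.043, 1.00 and 0.65). Zfp57 was not called with auxin in any line, at -0.09, 0.21 and -0.08.

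Other imprinted genes that are often described as a growth network with H19 and Igf2 mostly rose with differentiation. Of 16, 15 rose in untagged NPC and 1, Slc38a4, fell (median log2 of 3.53), beside 47.6% and 28.5% of all genes. With auxin, 9 rose and 4 fell in SUZ12-AID, beside 23.9% and 33.0% of all genes, 6 rose and 1 fell in MTF2-AID, beside 5.03% and 3.11%, and 3 rose and 4 fell in AID-JARID2, beside 9.28% and 15.7%. Slc38a4, an amino acid transporter of the placenta, rose in all 3 tagged lines (2.48, 0.86 and 0.79 in SUZ12-AID, MTF2-AID and AID-JARID2). Dlk1 rose by 3.44 in SUZ12-AID and fell by -0.55 in AID-JARID2. Plagl1, a zinc-finger regulator placed upstream of this network, was 118 TPM in untreated untagged NPC, 136 TPM in AID-JARID2, 151 TPM in MTF2-AID and 159.7 TPM in SUZ12-AID, all untreated, and auxin moved it by -0.29 in SUZ12-AID, 0.44 in MTF2-AID and 0.21 in AID-JARID2, the last not called.

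The summed level of 8 trophectoderm markers put the 8 NPC groups in exactly the order of H19 (Spearman rho of 1), including MTF2-AID without auxin below the untagged line. Most of that sum is Krt18 and Krt8, keratins of simple epithelia in general, at 515 and 385 TPM in SUZ12-AID with auxin and 51.6 and 44.1 TPM in untreated untagged NPC, so the order is largely theirs. The same value was 0.90 for Igf2. For the other marker sets, the rho with H19 was 0.76 for mesoderm, 0.62 for ESC, 0.33 for neural crest, 0.17 for endoderm, -0.76 for neural progenitor and -0.81 for neuron markers. This order was noticed after the values were seen and describes groups that share lines, so no test is given. In untreated MTF2-AID NPC, trophectoderm markers summed to 99.8 to 112 TPM against 115 to 128 TPM in untagged NPC. Mesoderm markers summed to 287 to 310 TPM there against 112 to 116 TPM. Most of both mesoderm sums was Tagln and Acta2, at 125 and 103 TPM in untreated MTF2-AID and 36.6 and 29.9 TPM in untagged NPC. Igf2 was the higher and H19 the lower in untreated MTF2-AID. Their part in the H19 and Igf2 values was not tested.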
